A study of Homo sapiens with 19 samples.

Results

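The lysates taken right after nanostraw electroporation (NEE) were compared with those taken before it. In NEE, cells lie on hollow tubes of nanoscale width, and brief electric pulses open the membrane above the tubes so that RNA can be drawn out while the cells live. The members are 8 of the 19 libraries of the study, chosen by their labels: 4 from right after NEE and 4 from before it, with 2 biological replicates in each of 4 groups. The cells were A549, an established human lung adenocarcinoma line, grown flat as monolayers or in 3 dimensions as spheroids. The groups were monolayers before NEE, monolayers right after NEE, spheroids before NEE and spheroids right after NEE. No genotype, drug or other agent is named for any of them. The labels name no culture handled in the same way without pulses, so a difference includes that of handling. They give no number of minutes between the pulses and lysis.

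The comparison covers the 14495 of 62700 listed genes that reached 1 CPM, a count scaled to the library total, in at least 2 of the 8 libraries. Levels are CPM scaled by TMM, a method that makes library totals comparable, and where 2 values are given for a group they are replicate 1 and then replicate 2. The 8 libraries held 17679586 to 24571083 counts, at which 3 counts correspond to 0.122 to 0.17 CPM. Reads carry no molecular identifiers, so this limit covers counting error only. Fold changes are right after over before on the log2 scale, from edgeR's quasi-likelihood test with culture form as a block, and a gene passed at a Benjamini-Hochberg adjusted p under 0.05 over all genes tested. The 2 replicates of a group are separate biological samples by the study's design, and its labels do not say how they were separated.

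Opening a cell membrane lets calcium in and small molecules and RNA out, and the cell reseals the hole by patching it with vesicles, annexins and the ESCRT machinery. Signalling through calcium and MAP kinases then switches on immediate early genes such as FOS, JUN, EGR1 and ATF3, whose transcripts appear within minutes and before any new protein is made. Targets of slower programmes follow, among them heat shock, unfolded protein, NF-kB and NRF2 genes. A lysate taken at once after the pulses reads the transcripts that were in the cells when they were opened, less what had left them and plus what had been made since.

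No gene passed the test right after NEE. edgeR called 0 of 14495 genes (0%), and the smallest adjusted p was 1.00. At an unadjusted p under 0.05 there were 146 genes (1.01%), of which 52 were higher right after NEE (0.359% of those tested) and 94 lower (0.648%). That is under the share of 0.05 that evenly spread p-values would give if no gene changed, and the reason was not tested. A positive log2 fold change was found in 7012 genes (48.4%). DESeq2 made 0 calls too, with 270 genes under an unadjusted p of 0.05, and limma voom made 0, with 207. With the replicate number as a block edgeR made 0 calls, with 286 genes under an unadjusted p of 0.05, and with a block within each culture it made 0 (0%), with 382. The count of 146 became 483 without replicate 2 of the monolayers before NEE and 241 without replicate 2 of the spheroids before NEE.

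The width of the intervals sets how small a change this fit could show. The fit has no replicate block, so differences between replicates add to the width. The median log2 fold change was −0.01 and the median of its size was 0.18, while the median half-width of the 95% interval was 0.74. The interval lay within 2-fold either way for 7631 genes (52.6%). Among the 3852 genes with a mean of 50 CPM or more right after NEE it lay within 2-fold for 3577 (92.9%), with a median half-width of 0.47. Genes that reached 50 CPM only before NEE are not among them. Within 1.5-fold it lay for 2490 of all genes tested (17.2%). For these genes a larger change in the mean over both cultures lies outside the interval, and for the others this fit leaves changes of that size undetermined.

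Immediate early genes showed no common shift. Of 35 on the list, 29 were measured. The log2 fold change was positive in 13, and its median was −0.03 against −0.01 over all genes tested. None of the 29 had an unadjusted p under 0.05, and for 12 of them the interval lay within 2-fold. With monolayer replicate 1 before NEE left out, 16 of 28 were positive, with a median of 0.05. JUND, EGR3, EGR4, NR4A3, KLF2 and ARC were under the limit on level.

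FOS, an AP-1 subunit, stood at 20.3 and 21.6 CPM in the monolayers before NEE and 16.9 and 20.9 CPM right after, and at 20.6 and 16.1 CPM in the spheroids before and 13.7 and 6.75 CPM right after. It was lower right after NEE in all 4 pairs of same-numbered libraries, while the 2 times overlapped in the monolayers. Its log2 fold change was −0.49, with a 95% interval of −1.15 to 0.16 (edgeR unadjusted p = 0.124, adjusted p = 1.00).

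JUN, the partner of FOS in AP-1, stood at 48.6 and 39.6 CPM in the monolayers before NEE and 16.4 and 38.9 CPM right after, and at 10.3 and 8.87 CPM in the spheroids before and 21.6 and 5.37 CPM right after. The spheroid values right after NEE lay on both sides of those before. JUNB, an AP-1 subunit too, stood at 6.25 and 5.09 CPM and then 2.08 and 12.6 CPM in the monolayers, and at 7.46 and 13.7 CPM and then 28.1 and 13.6 CPM in the spheroids. Its log2 fold change of 0.68 was the highest on the list, and replicate 1 of the spheroids right after NEE held the highest value. EGR1, a zinc finger factor at the front of most early responses, did not exceed 2.2 CPM in any of the 8 libraries.

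NR4A1, an orphan nuclear receptor of the early response, stood at 61.0 and 25.8 CPM in the monolayers before NEE and 42.9 and 30.6 CPM right after, and at 14.2 and 12.6 CPM in the spheroids before and 12.4 and 15.6 CPM right after. ATF3, a stress-induced factor, stood at 33.5 and 17.5 CPM and then 7.66 and 20.3 CPM in the monolayers and was at or under 1.66 CPM in all 4 spheroid libraries. CCN1, a secreted matrix protein of the early response and a YAP target, stood at 96.3 and 84.6 CPM and then 39.1 and 73.4 CPM in the monolayers, and at 27.8 and 24.5 CPM and then 37.3 and 15.7 CPM in the spheroids. The lowest monolayer values of JUN, ATF3 and CCN1 were all those of replicate 1 right after NEE. In that pair the list's median difference was −0.65, and in the other 3 pairs it lay between −0.06 and 0.17.

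**Figure D1:**
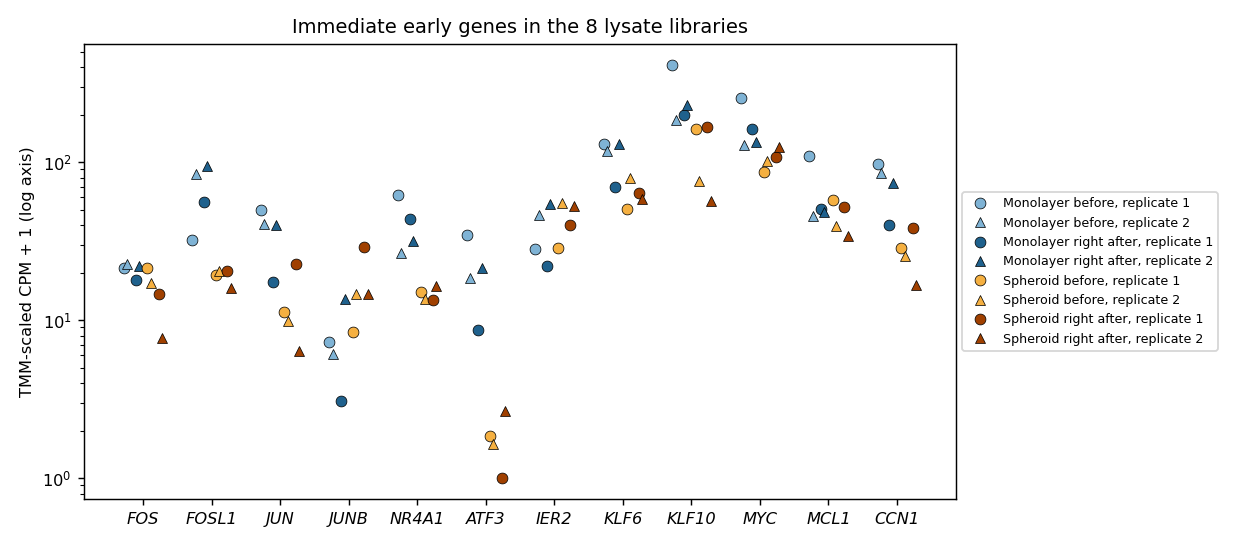
TMM-scaled CPM plus 1 on a log axis for 12 immediate early genes, with 1 point for each of the 8 libraries, blue for monolayers and orange for spheroids, lighter before NEE and darker right after. Darker and lighter points of a culture are mixed for most genes, and ATF3 is far lower in the spheroids than in the monolayers at both times.

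Some of these genes can be set beside their values 2 h after NEE, and the 2 h values of the rest of the list are not given here. The 2 h values come from a fit of all 16 lysate libraries and use the same libraries before NEE. In the spheroids at 2 h NR4A1 had a log2 fold change of 3.91, CCN1 of 3.62, JUN of 3.08 and FOSL1 of 2.43. In the main fit their spheroid values right after NEE were 0.06, 0.02, 0.49 and −0.12. In the monolayers NR4A1 had 2.48 and CCN1 2.49 at 2 h, beside −0.24 and −0.69 right after. None of these 12 values passed the test (edgeR adjusted p from 0.124 to 1). TIPARP, a target of the aryl hydrocarbon receptor, stood at 126.8 and 98.5 CPM in the monolayers before NEE and 103 and 119 CPM right after, and at 65.4 and 63.4 CPM in the spheroids before and 69.3 and 61.4 CPM right after. Its log2 fold change was −0.00, with an interval of −0.37 to 0.36. CYP1B1, a cytochrome P450 under the same receptor, had 0.11, with an interval of −0.34 to 0.57. Over the 6 measured targets of this receptor 4 were positive, with a median of 0.09, and 2 with monolayer replicate 1 before NEE left out, with a median of −0.01.

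Genes that brake MAP kinase signalling were measured for 11 of 14, with 5 positive and a median of −0.02. DUSP6, a phosphatase that inactivates ERK, stood at 53.8 and 24.7 CPM in the monolayers before NEE and 28.4 and 25.9 CPM right after, and at 53 and 38.5 CPM in the spheroids before and 45.9 and 37.9 CPM right after. Only replicate 1 before NEE stood apart in the monolayers. Without it the log2 fold change of DUSP6 went from −0.33 to 0.00. SPRED1, an inhibitor of RAS signalling, was the 1 member lower in both cultures without overlap, at 9.36 and 4.73 CPM and then 3.50 and 3.73 CPM in the monolayers and 5.83 and 6.11 CPM and then 5.64 and 5.48 CPM in the spheroids. Over all genes tested 206 were lower (1.42%) and 146 higher (1.01%) without overlap in both cultures.

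NF-kB and cytokine genes were measured for 21 of 25, with 15 positive and a median of 0.29. With monolayer replicate 1 before NEE left out, 19 of 21 were positive, with a median of 0.24. Over all genes tested 7173 of 14256 were positive in that fit. The monolayers had a median of 0.50 and the spheroids one of −0.15, and in 1 of the 4 pairs, replicate 2 of the monolayers, the median difference reached 0.84. In that pair CXCL1, a neutrophil chemokine, went from 37.2 to 124 CPM and NFKBIA, the inhibitor induced by NF-kB, from 150 to 217 CPM. In the spheroids the replicates were far apart at both times. SOD2, the mitochondrial superoxide dismutase, stood there at 2901 and 158 CPM before NEE and 2110 and 166 CPM right after, and CXCL1 at 417 and 35.8 CPM and then 374 and 34.1 CPM.

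NFKB1, which encodes the p105 and p50 subunit of NF-kB, was the 1 gene of the list with an unadjusted p under 0.05. It stood at 25.3 and 25.4 CPM in the spheroids before NEE and 10.9 and 11.9 CPM right after, and at 13.4 and 18.1 CPM in the monolayers before and 12.9 and 13.8 CPM right after. The spheroid groups did not overlap and the monolayer groups did. Its log2 fold change was −0.69 over both cultures and −1.15 ± 0.34 (SE) in the spheroids (edgeR unadjusted p = 0.00829, adjusted p = 1.00).

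The ATF4, unfolded protein, heat shock and p53 lists had medians near that of all genes. ATF4 targets had 10 of 17 measured members positive and a median of 0.04. Unfolded protein response genes had 9 of 20 and −0.01 (14 of 20 and 0.04 with monolayer replicate 1 before NEE left out), heat shock genes 11 of 20 and 0.02, and p53 targets 8 of 20 and −0.07. None of these 77 genes had an unadjusted p under 0.05. HSPA5, the main chaperone of the endoplasmic reticulum, stood at 2322 and 1511 CPM in the monolayers before NEE and 1694 and 1639 CPM right after, and at 3064 and 2648 CPM in the spheroids before and 2594 and 2848 CPM right after. The log2 fold change was −0.14, with an interval of −0.52 to 0.25. For 18 of the 20 heat shock genes the interval lay within 2-fold. CHAC1, a glutathione-degrading enzyme under ATF4, was higher in both cultures without overlap, at 9.20 and 8.19 CPM and then 10 and 12.6 CPM in the monolayers and 3.07 and 2.82 CPM and then 7.58 and 4.48 CPM in the spheroids (log2 fold change 0.70, interval −0.04 to 1.44).

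Genes of membrane repair, which include annexins, ESCRT subunits and caveolins, were measured for 26 of 30, with 12 positive and a median of −0.04. With monolayer replicate 1 before NEE left out, 6 of the 26 were positive, at the same median. The interval lay within 2-fold for 22 of them. CAV1, the main coat protein of caveolae, stood at 1464 and 1052 CPM in the monolayers before NEE and 898 and 1011 CPM right after, and at 381 and 240 CPM in the spheroids before and 311 and 238 CPM right after. The monolayer groups did not overlap, and the spheroid groups did. CHMP4C, an ESCRT-III subunit, was lower in both cultures without overlap, at 14.6 and 21.3 CPM and then 10.5 and 12.1 CPM in the monolayers and 25.6 and 23.6 CPM and then 23.4 and 21.9 CPM in the spheroids (log2 fold change −0.39, interval −0.92 to 0.14). Calcium and volume regulation genes had 12 of 29 positive and a median of −0.02.

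Several housekeeping groups had narrow intervals. Cytosolic ribosomal protein genes had 32 of 76 positive and a median of −0.06, and for 69 the interval lay within 2-fold. Nuclear-encoded respiratory chain genes had 23 of 45 positive and a median of 0.00, with 43 intervals within 2-fold. Cholesterol synthesis genes had 6 of 20 positive and a median of −0.05, and G2/M genes 9 of 20 and −0.01. Over both cultures all 20 intervals lay within 2-fold in each of these 2 lists. In the G2/M list the 2 cultures had opposite signs, with 16 of 20 positive in the monolayers (median 0.18) and 2 of 20 in the spheroids (median −0.18). Each sign came from 1 pair of libraries. The list's median difference was 0.41 and −0.04 in monolayer pairs 1 and 2, and 0.05 and −0.47 in spheroid pairs 1 and 2. With monolayer replicate 1 before NEE left out, 10 of 20 were positive over both cultures, with a median of 0.00. Within the single cultures 12 and 14 of the G2/M intervals lay within 2-fold. The ribosomal list had 10 of 76 positive in the monolayers (median −0.19) and 40 of 76 in the spheroids (median 0.02). With monolayer replicate 1 before NEE left out, the respiratory list had 12 of 45 positive and a median of −0.06, and the cholesterol list 12 of 20 and 0.02. In the ribosomal list 4 genes were lower in both cultures without overlap, among them RPL35 at 65.6 and 51.6 CPM and then 43.4 and 41 CPM in the monolayers and 34.1 and 33.1 CPM and then 28.0 and 27.0 CPM in the spheroids (log2 fold change −0.38, interval −0.78 to 0.02). The respiratory list also held 4 such genes, among them COX5B, a subunit of cytochrome oxidase. The list shares were 5.26% and 8.89%, beside the 1.42% of all genes given above. These shares were not tested, and the members of a list are not independent of each other. The ribosomal list's median difference was −0.19 and −0.16 in monolayer pairs 1 and 2, and −0.21 and 0.27 in spheroid pairs 1 and 2.

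Transcripts were also grouped by where they lie in the cell, since the tubes open into the cytosol. Nuclear long non-coding RNAs had 7 of 13 positive and a median of 0.04, mRNAs of cytosolic proteins 18 of 25 and 0.04, and mRNAs of membrane and secreted proteins, which are translated on the endoplasmic reticulum, 9 of 26 and −0.07. NEAT1, a scaffold RNA of nuclear paraspeckles, stood at 124.7 and 134 CPM in the monolayers before NEE and 139 and 108 CPM right after, and at 221 and 126 CPM in the spheroids before and 177 and 247 CPM right after. The groups overlapped in both cultures. ACTB, cytoplasmic actin, had a log2 fold change of −0.01, with an interval of −0.38 to 0.37. CPM is a share of each library, so a loss of the same share of every transcript would not show in these values, and a bulk lysate cannot tell fewer cells from less RNA per cell.

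YAP and TAZ targets had 6 of 18 positive and a median of −0.09. Without monolayer replicate 1 before NEE they had 8 of 18 and −0.03. Hypoxia and glycolysis genes had 12 of 25 and −0.00, and G1/S genes 5 of 20 and −0.06. Interferon-stimulated genes had 10 of 18 and 0.02. With monolayer replicate 1 before NEE left out, the G1/S list had 2 of 20 and −0.13, and the interferon list 7 of 17 and −0.10. By pair, the G1/S median difference was 0.12 and 0.02 in the monolayers and 0.16 and −0.49 in the spheroids, replicate 1 first. Only spheroid pair 2 was thus negative. MCM6, a subunit of the replicative helicase on the G1/S list, was lower in both cultures without overlap (log2 fold change −0.26, interval −0.62 to 0.10). IFIH1, the cytosolic sensor of double-stranded RNA MDA5, was the 1 interferon-stimulated gene with an unadjusted p under 0.05. It stood at 0.455 and 2.34 CPM and then 3.12 and 4.39 CPM in the monolayers and 4.87 and 5.29 CPM and then 8.39 and 11.5 CPM in the spheroids. Its groups did not overlap in either culture (log2 fold change 1.19 ± 0.50, edgeR unadjusted p = 0.0378, adjusted p = 1.00).

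**Figure D2:**
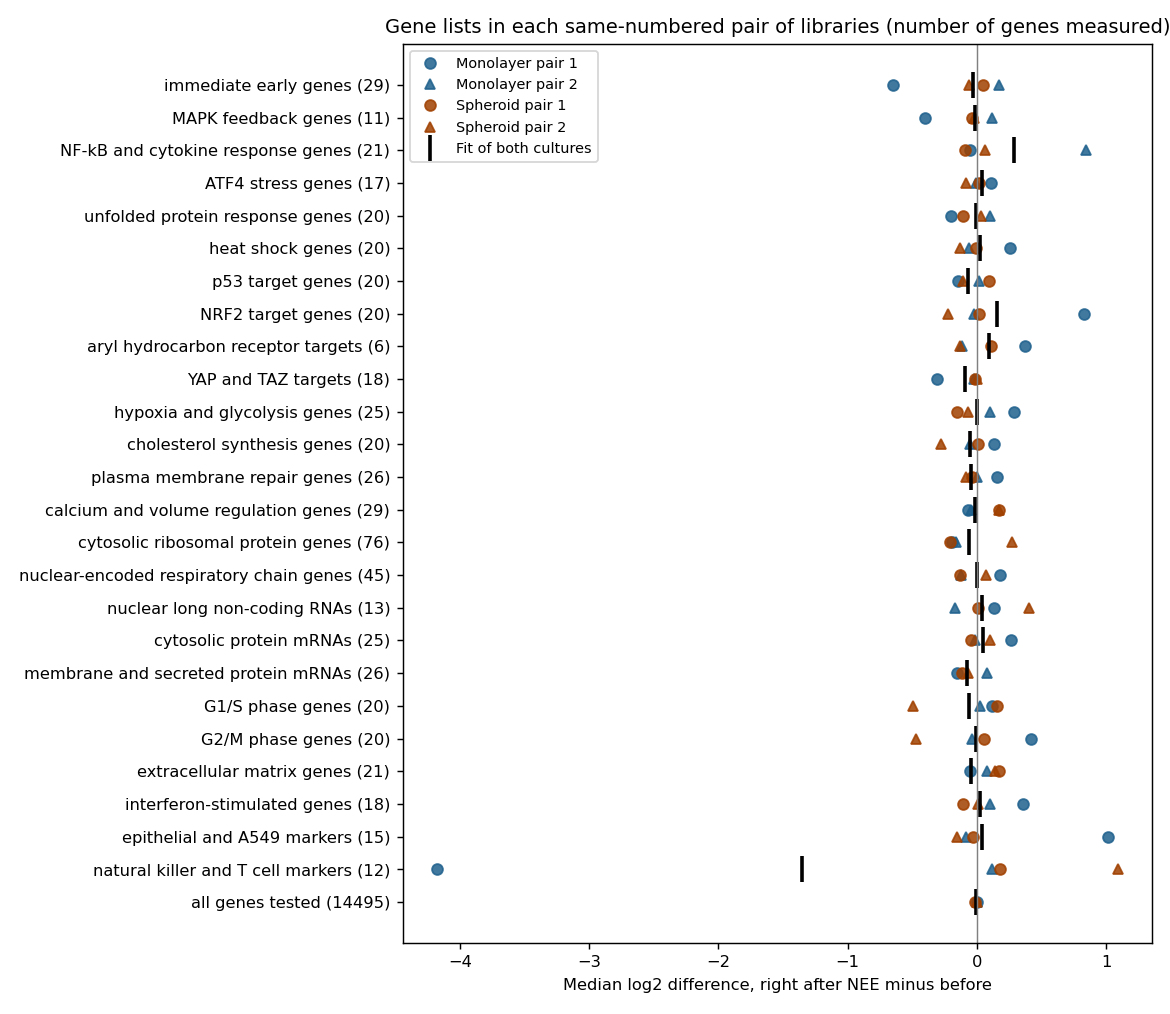
Median log2 difference, right after NEE minus before, of each gene list in each of the 4 same-numbered pairs of libraries (points) and in the fit of both cultures (bars), with the number of genes measured in brackets. The natural killer and T cell markers lie at −4.18 in monolayer pair 1, and most other points lie within 0.5 of 0.

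The genes that came nearest to a call were named from those whose right-after libraries did not overlap the before libraries in either culture, by smallest p. Most stood at 2 to 50 CPM, and none passed the test (edgeR adjusted p = 1.00). Since they were chosen for having no overlap, all 4 pairs of libraries go the same way by choice. AKAP6 (ENSG00000151320, chromosome 14, 32329273 to 32837681, GRCh38), an anchor protein for protein kinase A, stood at 2.35 and 1.83 CPM in the monolayers before NEE and 4.43 and 5.81 CPM right after, and at 4.33 and 4.23 CPM in the spheroids before and 13.5 and 9.69 CPM right after. Its log2 fold change was 1.37 ± 0.33 (SE, edgeR unadjusted p = 0.00218). ZBED4 (ENSG00000100426, chromosome 22, 49853842 to 49890078), a zinc finger protein, stood at 13.9 and 7.43 CPM and then 20.3 and 18.4 CPM in the monolayers, and at 4.33 and 8.28 CPM and then 15.6 and 21.4 CPM in the spheroids. For ZBED4 it was 1.2 ± 0.33 (SE, edgeR unadjusted p = 0.00519).

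The other 10 genes named on the higher side had log2 fold changes of 0.54 to 1.19. They included TESK1, a kinase that acts on cofilin, SLC26A9, a chloride transporter of airway epithelium, CELSR1, an atypical cadherin of planar polarity, SMCHD1, a chromatin protein of X inactivation, STN1, a telomere-capping subunit, and the ubiquitin ligase RNF220. PLPPR2, ZNF16, FDXACB1 and IFIH1 made up the rest. CELSR1 had the smallest SE of them, and stood at 30.1 and 36.4 CPM and then 46.0 and 49.1 CPM in the monolayers and 29.3 and 37.7 CPM and then 51.9 and 47.1 CPM in the spheroids (log2 fold change 0.54 ± 0.18, SE).

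On the lower side PLAGL2 (ENSG00000126003, chromosome 20, 32192503 to 32207791), a zinc finger transcription factor, stood at 21.7 and 12.1 CPM in the monolayers before NEE and 7.61 and 6.09 CPM right after, and at 16.5 and 18.5 CPM in the spheroids before and 8.55 and 9.63 CPM right after. The log2 fold change was −1.12 ± 0.28 (SE, edgeR unadjusted p = 0.00254). MYO9B (ENSG00000099331, chromosome 19, 17075781 to 17214537), an unconventional myosin, stood at 9.09 and 8.49 CPM and then 3.34 and 3.34 CPM in the monolayers, and at 5.89 and 4.99 CPM and then 2.15 and 3.21 CPM in the spheroids (log2 fold change −1.21 ± 0.34). ACSL5 (ENSG00000197142, chromosome 10, 112374018 to 112428380), which activates long-chain fatty acids, stood at 17.7 and 17 CPM and then 6.08 and 8 CPM in the monolayers, and at 29.6 and 36.8 CPM and then 22.3 and 26.7 CPM in the spheroids (log2 fold change −0.86 ± 0.26).

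The other 9 named genes on the lower side had log2 fold changes of −1.28 to −0.42. Among them were the phosphoinositide phosphatase SYNJ1, the mTORC1 regulator RRAGD, the polarity scaffold DLG1, the lysosomal polyamine transporter ATP13A2, the ciliary protein EVC and the scaffold SHANK2. ZNF26, SEL1L3 and BCL2L13 completed them. BCL2L13, a mitochondrial BCL2 relative, had the highest level of the 24 named genes, at 115 and 96.8 CPM and then 84.0 and 79.7 CPM in the monolayers and 105 and 118 CPM and then 81.7 and 80.3 CPM in the spheroids (log2 fold change −0.42 ± 0.15).

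Each culture was then fitted on its own contrast. In the monolayers edgeR called 0 genes (0%), with 60 higher (0.414%) and 190 lower (1.31%) under an unadjusted p of 0.05, and 0 calls by DESeq2 with 372. These 250 genes became 1520 without replicate 2 before NEE, 138 without replicate 1 right after NEE and 393 with a replicate block within each culture. In the spheroids it called 0 (0%), with 112 higher (0.773%) and 92 lower (0.635%), and 0 calls by DESeq2 with 290. Here 204 became 449 without replicate 2 before NEE, 308 without replicate 1 right after NEE and 354 with the block within each culture. Both contrasts had a median half-width of 1.12 for the 95% interval, against 0.74 over both cultures. The 10 genes named in the spheroids hold ZBED4, TESK1 and AKAP6 again.

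In the monolayers PLCH1, a phospholipase C, stood at 30.5 and 29.5 CPM before NEE and 61.9 and 60.0 CPM right after (log2 fold change 1.02 ± 0.30, edgeR unadjusted p = 0.00816). NIF3L1, H3C6, TRIM69 and ITPK1 were the others named as higher, at 0.87 to 1.12. The 5 named as lower were ACSL5 and TNFSF10, DOCK8, AOAH and INPP5D, and the last 4 were highest in replicate 1 before NEE. TNFSF10, the death ligand TRAIL, stood at 18.5 and 4.17 CPM and then 0.547 and 1.43 CPM. DOCK8, AOAH and INPP5D, all genes of blood cells, stood at 26.6, 27.5 and 18.1 CPM in that library and at or under 5.09 CPM in the other 7.

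In the spheroids SLC45A4, a membrane transporter, stood at 12.7 and 11.2 CPM before NEE and 1.94 and 1.88 CPM right after (log2 fold change −2.64 ± 0.59, edgeR unadjusted p = 0.0019, adjusted p = 1.00). The monolayers had 1.78 and 2.64 CPM before and 6.24 and 2.96 CPM right after. EPC2, NFKB1, MAP3K6 and TCF20 were also named as lower, at −2.97 to −1.15, and SFMBT2 and ZSWIM6 as higher beside the 3 genes above.

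The difference between the cultures was tested as an interaction. edgeR called 0 genes (0%), with 201 genes more positive in the spheroids (1.39%) and 74 less positive (0.511%) under an unadjusted p of 0.05, and 0 calls by DESeq2 with 362. These 275 became 932 without replicate 2 of the monolayers before NEE and 162 without replicate 1 of the monolayers right after. SLC45A4 and PLCH1 were among the 5 named as less positive, with differences of −3.70 ± 0.82 and −1.44 ± 0.42 (SE, edgeR unadjusted p = 0.00172 and 0.00822). Among the 5 named as more positive were SLA, GZMB and CD300A, genes of leukocytes, which stood at 29.1, 54.4 and 21.1 CPM in replicate 1 of the monolayers before NEE and at or under 7.14 CPM elsewhere. Their differences were 5.44, 5.31 and 5.64 with all libraries and 2.13, 2.01 and 2.22 without that one.

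The log2 fold changes of the 2 cultures, which share no library, were not related across genes. Pearson's r was −0.03 over 14495 genes and −0.02 over the 3722 at 50 CPM or more at both times, where the same sign was found in 1740 genes (46.7%). Over all genes tested it was found in 7158 (49.4%). These values are across genes, which are not independent replicates.

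**Figure D3:**
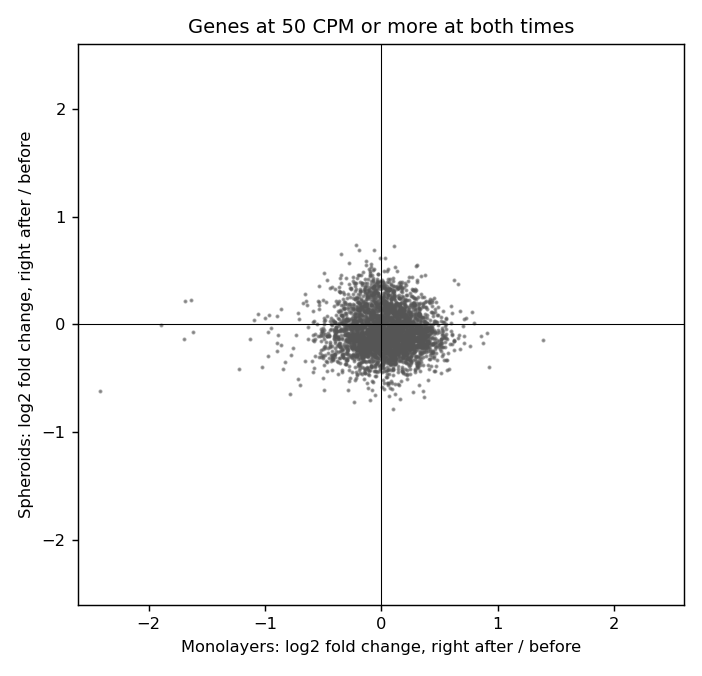
log2 fold change right after NEE over before in the monolayers (horizontal) and in the spheroids (vertical), 1 point for each of 3722 genes at 50 CPM or more at both times. The points form a round cloud about 0, and the few below −1 lie along the monolayer axis.

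Libraries of 1 replicate number at the 2 times were more alike at the median than the replicates of a group. Pearson's r of log2 CPM was 0.89 to 0.93 between replicates of a group (4 pairs, median 0.905) and 0.921 to 0.945 between libraries before and right after NEE with the same replicate number (4 pairs, median 0.932). With different replicate numbers it was 0.895 to 0.92 (4 pairs, median 0.91). In a fit with a replicate term in each culture, replicate 2 differed from replicate 1 in 251 genes of the monolayers (1.73%) and 143 of the spheroids (0.987%), each tested over the library before and the one right after NEE. In the main fit the culture term called 1414 genes (9.76%).

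Differences between replicates before NEE were in part there right after it, more so in genes of high level. Over genes with a mean of 50 CPM or more, Pearson's r of replicate 2 minus replicate 1 before NEE against the same right after was 0.63 in the monolayers (3859 genes) and 0.68 in the spheroids (3815 genes). The same sign was found in 73.9% and 68.9% of them. Over all 14495 genes r was 0.36 and 0.40, with the same sign in 64.9% and 61.9%. The median size of the replicate difference on log2(CPM + 1) was 0.53 before and 0.27 right after in the monolayers and 0.29 and 0.24 in the spheroids. The median size of the difference between times was 0.32 in replicate 1 and 0.13 in replicate 2 of the monolayers, and 0.19 and 0.18 in the spheroids. In the spheroids the replicate difference exceeded the time difference throughout. In the monolayers it did so too, save that right after NEE it was under the time difference of replicate 1, which holds the library described further on.

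TCN1, a vitamin B12 carrier protein, stood at 11.8 and 158 CPM in the monolayers before NEE and 6.79 and 161 CPM right after. MMP7, a matrix metalloproteinase, stood at 14.7 and 218 CPM and then 39.6 and 223 CPM, and IGFBP3, a binding protein of insulin-like growth factors, at 106 and 391 CPM and then 131 and 482 CPM. SCD, the stearoyl-CoA desaturase, ran the other way, at 3769 and 1147 CPM and then 3293 and 1387 CPM. All 4 passed the test between replicates (edgeR adjusted p = 0.000903, 0.00344, 0.00304 and 0.0177).

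Other genes differed between the spheroid replicates. ADM, the vasodilator peptide adrenomedullin, stood at 345 and 41.8 CPM before NEE and 304 and 39.1 CPM right after. SLC2A3, a glucose transporter, stood at 268 and 35.7 CPM and then 213 and 38.8 CPM, and IGFBP1, a relative of IGFBP3, at 216 and 7.58 CPM and then 182 and 16.1 CPM (edgeR adjusted p between replicates = 0.00491 for all 3). HLA-DMB, a chaperone of MHC class II, was high in replicate 2, at 13.8 and 96.1 CPM and then 11.7 and 92.4 CPM (edgeR adjusted p = 0.00594). Of the genes called between replicates 215 were higher in replicate 2 and 36 in replicate 1 of the monolayers, and 41 and 102 in the spheroids. What the replicates differ by is not given in the labels beyond a batch number.

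**Figure D4:**
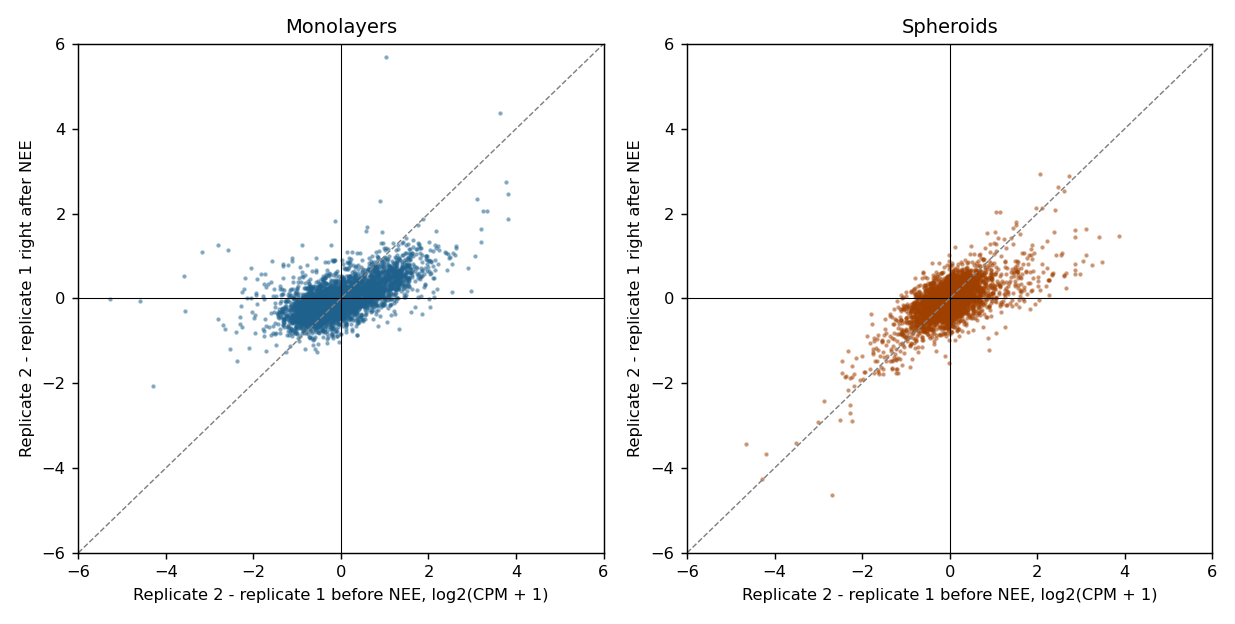
Replicate 2 minus replicate 1 in log2(CPM + 1) before NEE (horizontal) and right after NEE (vertical), 1 point per gene with a mean of 50 CPM or more, for 3859 genes in the monolayers and 3815 in the spheroids, with the line of equal values dashed. Points lie along the diagonal in the spheroids and on a shallower slope in the monolayers.

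Replicate 1 of the monolayers before NEE stood apart from the other 7 libraries. In it 261 genes were over 4-fold above the median of the other 7 and 258 over 4-fold below, while in the others 17 to 138 were above and 22 to 141 below. The 12 measured natural killer and T cell markers, of 20 listed, summed to 643 CPM there and to 18.7 to 62.0 CPM in the others. Perforin, a pore former of cytotoxic granules encoded by PRF1, had 189.5 CPM in it and 4.21 to 16.7 CPM elsewhere, and PTPRC, the leukocyte common antigen, at 85 CPM and elsewhere at 1.72 to 5.76 CPM. The T cell receptor genes CD3D, CD3E and CD3G were under the limit on level. The 15 measured markers of epithelium and A549 summed to 15682 CPM there and to 32222 to 52088 CPM elsewhere. KRT18, an epithelial keratin, stood at 867 CPM in it and at 3211 to 7206 CPM elsewhere. The part of other cells in the values of this library was not tested.

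Of B cell and myeloid markers 5 of 16 were measured. They summed to 66.9 CPM in this library and to 12.2 to 106 CPM in the others, and were higher in replicate 1 of the spheroids at both times, so the list as a whole did not set it apart. FCGR3A, the Fc receptor of natural killer cells and monocytes, was at 42.7 CPM in it and at or under 4.48 CPM in the others. Fibroblast markers had 4 of 11 measured and summed to 44.5 CPM in it, 21.5 to 38.3 CPM in the other monolayer libraries and 14.3 to 18.5 CPM in the spheroids. The endothelial and erythroid lists had 1 measured gene each. Keratins and aldo-keto reductases stood high in the other 7 libraries: KRT8 was at 7662 to 15325 CPM and AKR1B10 at 8557 to 14108 CPM in them. Epithelial and A549 markers were the larger sum in this library too, at 15682 CPM beside 643 CPM for the natural killer and T cell markers.

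The comparison was repeated without this library, with 4 libraries right after NEE and 3 before. edgeR called 0 of 14256 genes (0%), with 126 higher (0.884%) and 64 lower (0.449%) under an unadjusted p of 0.05, where all 8 libraries gave 52 and 94. DESeq2 made 0 calls, with 276, and the replicate block moved the 190 to 299, or to 368 within each culture, with 0 calls. Of the 52 higher genes 36 were also higher at that level without it, and of the 94 lower genes 32 were also lower. The sign of the log2 fold change differed in 3674 genes (25.8%), with a median move of 0.14, and 264 genes moved by over 1 on the log2 scale.

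Leukocyte genes were among those that moved most. CD74, the invariant chain of MHC class II, stood at 126 CPM in this library, 2.64 CPM in its replicate, 3.28 and 2.85 CPM in the monolayers right after NEE and 3.58 to 8.55 CPM in the spheroids. Its log2 fold change was −2 with all libraries and 0.35 without this one. CD2, an adhesion receptor of T and natural killer cells, went from −1.79 to 0.84, and KIR2DL4, a receptor of natural killer cells whose gene has near-identical neighbours, from −1.54 to 0.88. The median of the natural killer and T cell list went from −1.35 over 12 genes to 0.65 over the 10 still tested. Over the 12, the median difference was 0.12 in monolayer pair 2, 0.18 in spheroid pair 1 and 1.09 in spheroid pair 2. Replicate 2 of the spheroids right after NEE held the highest sum outside this library, at 62.0 CPM. APBA1, a neuronal adaptor that is no leukocyte marker, moved most of the genes at 5 CPM or more, from −0.32 to 3.23. It was at 19.9 CPM in this library and 0 in its replicate. Without this library its mean was 0.218 CPM before NEE, beside 1.67 CPM right after. The value of 3.23 thus rests on levels near the counting limit. CD2 and KIR2DL4 too reached 5 CPM only through this library, with means of 1.08 and 3.08 CPM right after NEE.

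Other lists moved with it as well. Epithelial and A549 markers had 12 of 15 positive and a median of 0.04 with all libraries, and 2 of 15 and −0.13 without this one. NRF2 targets, genes of antioxidant defence, had 17 of 20 positive and a median of 0.15 with all libraries, and 8 of 20 and −0.01 without this one. AKR1C2, an aldo-keto reductase of the list, stood at 669 CPM in it and 1516 CPM in its replicate, and at 1474 and 1562 CPM in the monolayers right after. Extracellular matrix genes, with 9 of 21 positive, went from −0.05 to 0.20, with 16 of 21 positive, and metallothioneins and zinc genes, 4 measured, from −0.67 to −0.05. MT2A, a metal-binding metallothionein, stood at 122 CPM in this library and at 10.1 to 40.8 CPM in the others.

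The genes named over both cultures mostly had like values without it. They were chosen on all 8 libraries for small p and no overlap, and both fits share the other libraries. Like values thus follow in part from the choice. AKAP6 had 1.48 ± 0.35 (SE), ZBED4 1.5 ± 0.32, PLAGL2 −0.87 ± 0.27 and MYO9B −1.13 ± 0.38 (edgeR unadjusted p = 0.0025, 0.00122, 0.0097 and 0.0159, adjusted p = 1.00). GAPDH, a glycolytic enzyme, was at 1676 CPM in this library and 3457 to 7689 CPM in the others, and its log2 fold change was 0.28 with it and 0.07 without.

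**Figure D5:**
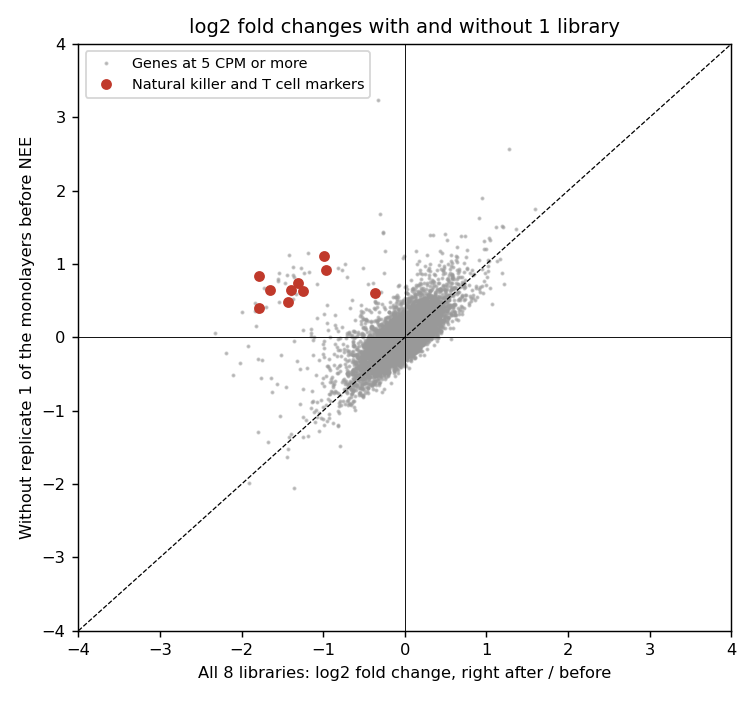
log2 fold change right after NEE over before with all 8 libraries (horizontal) and with the first replicate of the monolayers before NEE left out (vertical), for genes at 5 CPM or more in the higher time (grey) and the natural killer and T cell markers fitted both ways (red), with the line of equal values dashed. The red points lie below 0 with all libraries and above 0 without that one.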

How the data were processed

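Smart-Seq2 libraries were made from total RNA of lysates, per the labels' protocols. Each deposited file gives whole-number counts by gene. The submitters' processing notes name GRCh38 and the tools FastQC, Trimmomatic, HISAT2 and featureCounts. Software versions, annotation, strand setting and handling of multiply mapped reads were not given in the sources used here, so overlapping, antisense and near-identical genes are uncertain. All 37 mitochondrially encoded genes listed were at 0 in these files. GENCODE release 29 placed 58207 of 62700 genes.

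Counts were used as deposited. edgeR 4.0.16 in R 4.3.3 fitted robust quasi-likelihood models with TMM scaling (factors 0.923 to 1.08) to genes at 1 CPM or more in 2 of the 8 libraries: an additive model of culture and time (5 residual degrees of freedom, biological coefficient of variation 0.464), a model of the 4 groups (4, 0.473), and the additive model without replicate 1 of the monolayers before NEE (4, 0.42). Intervals are at 95% from the SE and those degrees of freedom with the prior's. Scripts were tested on simulated data. Summaries and figures used Python 3.11.15, pandas 2.3.3, numpy 2.4.6 and matplotlib 3.10.9.

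Named genes were the 12 of smallest p in each direction over both cultures and 5 in each direction for the other contrasts, all protein coding, at 5 CPM or more in the higher time and without overlap between times. Without those conditions up to 4 genes of smallest p were added per list. So were the 10 genes at 5 CPM or more that moved most without replicate 1 of the monolayers before NEE, and 9 followed genes. The text gives those a statement needs. Genes that differ between replicates, and others given by level, were picked with their values in view. The members, lists and tests were chosen with earlier results of these data known, and lists got no test of their own.

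The replicate number comes from a batch tag in the labels and was treated as pairing libraries. Between libraries of 1 number, deviations from the group mean correlated at 0.074 to 0.277 across 14495 genes, 0.236 and 0.277 within the cultures. No 2 libraries were duplicates (chi-square per gene 17.6 to 416). Alternatives were DESeq2 1.42.0, limma voom with quality weights, other scalings and filters, a non-robust fit, a 1.2-fold minimum, all 16 lysate libraries, the replicate block and leaving out each library. Some items are not reported here.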

Additional observations from a re-analysis of the deposited data

How the results depend on the processing

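The count of 0 called genes in each of the 5 comparisons held under RLE and upper-quartile scaling, the filter at 5 CPM, filterByExpr, the non-robust fit, voom, DESeq2, all 16 lysate libraries and both forms of the replicate block, and over both cultures with a 1.2-fold minimum. With no filter on low counts edgeR called 11 genes over both cultures, 39 in the monolayers, 1 in the spheroids, 18 in the interaction and 1 with the first monolayer replicate before NEE left out. Of these, 9, 37, 0, 17 and 0 were highest in that library, and the cause was not tested. With a library left out in turn, which was run for the 4 comparisons that use all 8 libraries, the counts stayed at 0, save that the monolayers had 0 to 1, the 1 being LCP1, a leukocyte actin-bundling protein, when the second monolayer replicate before NEE was left out (adjusted p = 0.0356 by edgeR, with 1520 genes at an unadjusted p under 0.05 against 250), where the lone remaining library is assumed to vary like the others. The counts at an unadjusted p under 0.05 were 146, 250, 204, 275 and 190 in these comparisons. They became 665, 681, 504, 806 and 552 with no filter and 81, 92, 82, 92 and 108 with the filter at 5 CPM. With voom they were 207, 100, 207, 137 and 458, and with all 16 lysate libraries 291, 307, 276, 350 and 303. The replicate block gave 286, 330, 289, 345 and 299, the block within each culture 382, 393, 354, 397 and 368. Of 3461 alternative values of named genes 72 had the other sign, as had 107 of 598 list medians. Most named genes were chosen for small p in these fits, so few changes of sign follow in part from the choice. Over all genes, leaving out replicate 1 of the monolayers before NEE changed the sign in 3674 (25.8%). The median over all genes was −0.01 with TMM and RLE and 0.00 with upper-quartile scaling. At this depth, with 2 libraries a group and no replicate block, 1.5-fold changes of most genes are not determined.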
